A study of Mus musculus with 4 samples.

Results

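The vomeronasal receptor genes of the mouse were examined in a methylated-DNA immunoprecipitation sequencing (MeDIP-seq) study of natural killer T (NKT) thymocytes. Members were every gene or pseudogene annotated on chromosomes 1 to 7 whose symbol starts with Vmn1r or Vmn2r, each with 1000 bp on both sides, outside a distal stretch of chromosome 4 that the selection left out (it holds Vmn2r-ps15 to Vmn2r-ps20). The RefSeq gene table for GRCm38.p6, a patch of the mm10 assembly, holds 645 such genes, 431 of them on these chromosomes. Of those, 6 lay in the stretch left out and 7 carried positions before 3 Mb, ahead of the first listed window of their chromosome, and were not used. The 418 loci analysed were 259 Vmn1r and 159 Vmn2r loci, 258 of them protein-coding and 160 pseudogenes. They overlapped 1487 of the 1048575 windows of 100 bp in the deposited table, 220 at Vmn1r and 1267 at Vmn2r loci, and no window belonged to both subfamilies.

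The study compared genomic DNA of CD1-tetramer positive NKT cells, sorted fresh from the thymus of C57BL/6 mice labelled WT or PLZFon. PLZF is the zinc finger transcription factor that directs the NKT lineage; what the PLZFon allele is, and how many mice went into a library, is not given in the labels. For each genotype there was 1 MeDIP library and 1 input library, 4 in all. MeDIP enriches fragments that carry methylated cytosine by means of an antibody, and the input is the sheared DNA without that enrichment. The antibody field names the antibody for both WT libraries and none for both PLZFon libraries. The titles instead name 1 input per genotype, as do the column headers of the counts. The titles were followed. In all other listed windows the MeDIP library exceeded its input 4.44-fold in WT and 4.22-fold in PLZFon. Windows were listed by their MeDIP reads summed over both genotypes, which favours values above 1. These values therefore do not by themselves settle the conflict between the labels. MeDIP holds no RNA, and the labelled cell type could not be checked against markers. With 1 library per group no difference between genotypes could be tested, and each interval below is an exact 95% binomial (Clopper-Pearson) interval that covers counting error only. The MeDIP libraries held 15141449 (WT) and 10633609 (PLZFon) reads, and the inputs 60683037 and 50374582.

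Vomeronasal receptors are G protein-coupled receptors of the vomeronasal organ, which detects pheromones and other social cues. Vmn1r receptors have a short extracellular end, are encoded by a single coding exon and couple to Gαi2 in apical sensory neurons, whereas Vmn2r receptors have a long ligand-binding N-terminal domain spread over several exons and couple to Gαo in basal neurons. Both signal through the Trpc2 channel. A vomeronasal neuron expresses one or very few of these genes, and T cells are not a known site of their expression. The genes lie in large tandem clusters of recent duplicates, so members share long stretches of sequence.

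A window appears in the table only if its MeDIP reads in both genotypes came to 10 or more and it had a CpG factor, the CpG content of the window as the authors' file gives it, of at least 1. Whether a promoter is listed is therefore a readout of its own, and the promoters below are shown because their CG dinucleotides and their near identity bear on it. Each runs from 250 bases before to 50 after the gene start (RefSeq, GRCm38.p6, minus strand except Vmn1r95), with CG in capitals. Vmn1r126 (chr7:21301418-21301717) and Vmn1r247 (chr7:21761426-21761725) have 4 CGs and are listed, and Vmn1r95 (chr7:20193460-20193759, plus strand) of the same cluster has 3 and is not. Vmn2r53 (chr7:12606495-12606794) has 4 and is listed, and Vmn2r35 (chr7:7819818-7820117), the locus with the most MeDIP reads, has 1 and is not. Vmn2r29 has a CG-dense start (chr7:7278240-7278539) with 23 and a second start (chr7:7247279-7247578) with 0.
Vmn1r126: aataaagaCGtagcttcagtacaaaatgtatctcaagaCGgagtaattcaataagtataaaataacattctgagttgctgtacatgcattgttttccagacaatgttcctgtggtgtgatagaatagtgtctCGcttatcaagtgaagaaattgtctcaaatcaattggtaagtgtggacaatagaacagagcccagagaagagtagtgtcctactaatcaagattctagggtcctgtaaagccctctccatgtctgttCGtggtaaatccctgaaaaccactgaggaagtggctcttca
Vmn1r247: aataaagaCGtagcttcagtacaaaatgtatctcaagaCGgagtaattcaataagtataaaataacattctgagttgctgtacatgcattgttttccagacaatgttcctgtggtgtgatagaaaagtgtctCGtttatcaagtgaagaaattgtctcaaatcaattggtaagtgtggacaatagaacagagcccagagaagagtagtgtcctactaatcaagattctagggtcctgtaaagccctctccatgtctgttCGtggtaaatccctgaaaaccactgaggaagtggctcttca
Vmn1r95: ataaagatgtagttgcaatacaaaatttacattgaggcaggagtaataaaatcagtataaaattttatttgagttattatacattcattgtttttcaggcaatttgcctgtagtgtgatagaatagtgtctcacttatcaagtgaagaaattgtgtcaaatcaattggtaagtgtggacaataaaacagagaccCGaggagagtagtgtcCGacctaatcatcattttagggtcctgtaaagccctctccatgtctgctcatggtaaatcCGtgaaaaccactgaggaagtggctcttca
Vmn2r53: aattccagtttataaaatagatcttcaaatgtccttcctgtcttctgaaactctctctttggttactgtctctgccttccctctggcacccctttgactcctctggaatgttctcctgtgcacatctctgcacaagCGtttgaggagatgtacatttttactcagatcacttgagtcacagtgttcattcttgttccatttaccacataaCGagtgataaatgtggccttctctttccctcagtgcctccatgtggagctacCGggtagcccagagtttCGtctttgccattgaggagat
Vmn2r35: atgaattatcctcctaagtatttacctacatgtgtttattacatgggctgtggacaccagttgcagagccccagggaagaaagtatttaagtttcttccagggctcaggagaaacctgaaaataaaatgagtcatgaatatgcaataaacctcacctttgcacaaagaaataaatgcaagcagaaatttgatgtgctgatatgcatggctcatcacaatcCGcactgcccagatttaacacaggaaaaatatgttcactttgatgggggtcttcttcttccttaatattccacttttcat
Vmn2r29, first start: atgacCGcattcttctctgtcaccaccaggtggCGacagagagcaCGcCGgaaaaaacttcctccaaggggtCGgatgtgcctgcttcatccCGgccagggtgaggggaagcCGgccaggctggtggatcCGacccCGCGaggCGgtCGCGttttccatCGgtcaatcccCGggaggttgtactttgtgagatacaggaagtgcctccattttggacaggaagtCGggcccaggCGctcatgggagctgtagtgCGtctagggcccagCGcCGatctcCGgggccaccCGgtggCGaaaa
Vmn2r29, second start: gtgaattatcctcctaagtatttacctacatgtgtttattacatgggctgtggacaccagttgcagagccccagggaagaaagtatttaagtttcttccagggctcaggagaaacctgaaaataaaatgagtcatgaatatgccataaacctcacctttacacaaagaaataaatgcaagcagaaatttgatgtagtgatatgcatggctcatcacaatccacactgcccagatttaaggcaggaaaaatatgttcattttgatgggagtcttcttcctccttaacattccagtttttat

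Promoters of the receptor genes were poor in CGs and seldom listed. RefSeq gave 236 promoter sequences for 235 of the 418 loci, with a median of 2 CGs at Vmn1r and 1 at Vmn2r genes, against 1 at olfactory receptor (Olfr) genes and 8 at all other genes of these chromosomes. At least 1 CG stood in 80.1% of the receptor promoters and in 94.3% of all promoters of this length (the motif CG reads the same on both strands). A listed window overlapped 8 of 161 Vmn1r promoters (4.97%, interval 2.17 to 9.56%) and 3 of 75 Vmn2r promoters (4%, 0.833 to 11.2%). The share was 5.72% of 507 Olfr promoters and 16.2% of 14312 promoters of other genes. Among Vmn1r promoters, 0 of 33 without a CG (upper bound 10.6%) and 0 of 47 with 1 CG (upper bound 7.55%) were listed. Of those with 4 or more, 6 of 8 were listed (75%, 34.9 to 96.8%). These 6 are near copies of one another, so an interval that treats them as independent promoters is too narrow. With 4 to 7 CGs, 25% of 32 Olfr promoters and 36.7% of 2930 promoters of other genes were listed. Among Vmn2r promoters, 2 of 4 with 4 or more CGs were listed. 1 of these was the CG-dense start of Vmn2r29, whose listed window had 4 PLZFon and 6 WT MeDIP reads against 28 and 38 input reads. Scaled to library totals, MeDIP lay below input there in both genotypes. Since a window needs CpG content to be listed, part of the order by CG number was built into the table.

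**Figure D1:**
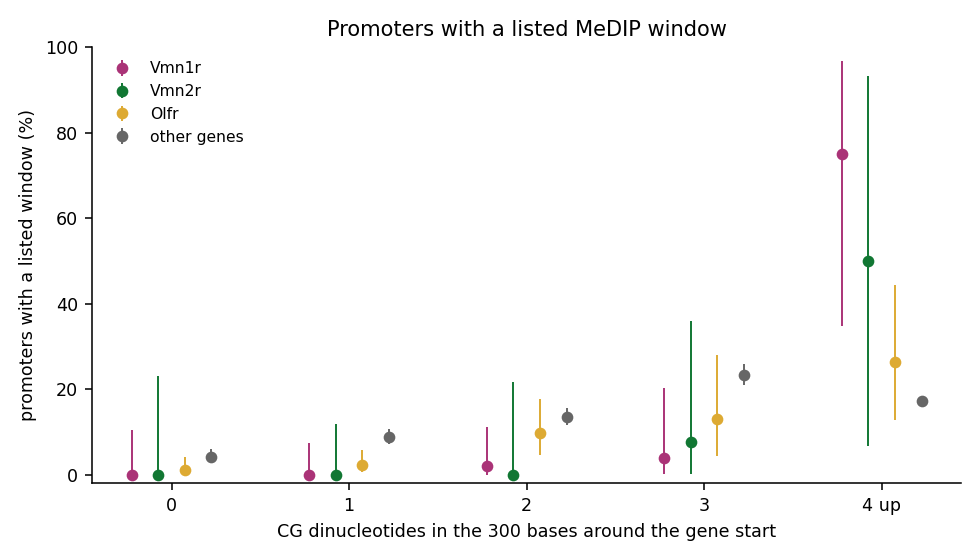
Share of promoters with a listed MeDIP window (vertical axis, %) by number of CG dinucleotides in the 300 bases around the gene start (horizontal axis), for Vmn1r, Vmn2r, Olfr and other genes; points are shares and bars exact 95% binomial intervals. Vmn1r promoters stand at 0% with 0 or 1 CG and at 75% with 4 or more, where the listed ones are near copies that the bar treats as independent.

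The listed Vmn1r promoters with 4 or more CGs were near copies of one another. Vmn1r93, Vmn1r114, Vmn1r126 and Vmn1r250 have the same 300 bases, and Vmn1r247 and Vmn1r258 differ from them by T125A and C135T (position 1 is the 5′ end of the printed promoter, and the Vmn1r126 base comes first). These 6 loci accounted for all 6 listed promoters of that class and held 15 listed promoter windows. At Vmn1r126 the 3 windows had 6, 5 and 5 PLZFon MeDIP reads against 15, 16 and 16 in WT. At Vmn1r247, whose promoter differs in 2 bases, they had 11, 11 and 11 against 5, 7 and 6. In these counts the order of the genotypes was opposite at the pair, on few reads that neighbouring windows share. Over the adjoining listed windows at each promoter, PLZFon to WT was 0.485 (0.114 to 1.61) at Vmn1r126 and 2.34 (0.784 to 7.62) at Vmn1r247. Both intervals held 1 and they overlapped, and the difference was not tested. Summed over the 6 whole loci with their flanks, not the promoters alone, the ratio of PLZFon to WT was 1.18 (0.738 to 1.88). Each genotype was scaled to its library total, and the ratio rested on 36.25 and 43.75 reads after allowing for reads counted in several windows. Across the receptor family 62 promoters were identical to that of another member, in 25 groups of up to 6, and 60.9% of Vmn1r and 70.7% of Vmn2r promoters shared a run of 50 bases with the promoter of another gene, against 12.2% of Olfr and 16.4% of other promoters. A read inside such a run has more than 1 possible place. WT input in the 15 windows was 12 to 24 reads, with a mean of 17.1, against 14.3 per listed window of the whole family.

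Few windows of the receptor loci were listed in all. The table listed 3.39% of the 43843 windows the 418 loci span (Vmn1r 2.40% of 9148, Vmn2r 3.65% of 34695), against 9.44% of all other windows of these chromosomes, 11.6% at other protein-coding loci and 4.55% at Olfr loci. At least 1 window was listed at 142 loci (34.0%, 29.4 to 38.7%): 57 of 259 Vmn1r (22.0%, 17.1 to 27.6%) and 85 of 159 Vmn2r (53.5%, 45.4 to 61.4%). The median annotated length was 924 bp for Vmn1r and 16005 bp for Vmn2r, so a Vmn2r locus offered more windows. Of the Vmn1r windows 43.6% lay inside the annotated gene and the rest in the flanks, and of the Vmn2r windows 95.3% lay inside. At the 235 loci with a known strand, 1.08% of windows within 1000 bp of a Vmn2r start were listed, 3.37% in the body and 1.35% within 1000 bp of the end. The Vmn1r values were 1.68% at the start, 4.38% in the body and 2.57% at the end. In both subfamilies the share at this distance was lower around the start than in the body. A window near both ends was counted at the start, and body windows lay more than 1000 bp from both ends. A Vmn1r gene of the median length therefore had no body window. The Vmn1r body share came from longer annotations only, so the Vmn1r start and body values cover different genes. Within 500 bp the Vmn2r share was 1.76% at the start and 0.810% at the end, so the order of the ends depends on the distance taken.

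The members fell into 26 clusters when genes less than 1 Mb apart were joined, 8 of them a single gene. No window was listed in 11 clusters with 26 genes, among them 9 Vmn1r genes on chromosome 6 at 66.55 to 66.81 Mb (337 windows). The densest of the larger clusters was on chromosome 5 at 151.44 to 151.64 Mb, 5 Vmn2r loci of which 4 are pseudogenes, with 13.0% of windows listed. Clusters of like gene number differed in enrichment, the MeDIP reads per library total over the input reads per library total in listed windows. The cluster on chromosome 7 at 7.15 to 13.24 Mb, with 94 genes of both subfamilies, had an enrichment of 6.28 (5.86 to 6.73) in WT and 6.65 in PLZFon over 342 windows. The cluster of 99 Vmn1r genes at 20.10 to 24.06 Mb, which holds the Vmn1r126 promoter group, had 1.84 (1.46 to 2.32) in WT and 2.11 in PLZFon over 58 windows. The cluster of 94 genes spanned 10938 windows and that of 99 genes 3074. The mean CpG factor of their listed windows was 2.90 and 1.88. Vmn2r35 alone held 1953.5 of the 3669.5 MeDIP reads of the cluster of 94 genes. The part of these features in the difference was not tested. The lowest enrichment was at the pair Vmn2r129 and Vmn2r125 at the end of chromosome 4 (156.33 Mb), with 1.20 (0.700 to 1.96) in WT and 1.46 in PLZFon. This pair also held 3 of the 4 receptor windows with at least 60 input reads, up to 36 in PLZFon and 44 in WT; the fourth was at the CG-dense start of Vmn2r29, with 28 and 38. Such windows were 0.269% of receptor windows and 0.493% of all listed windows.

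**Figure D2:**
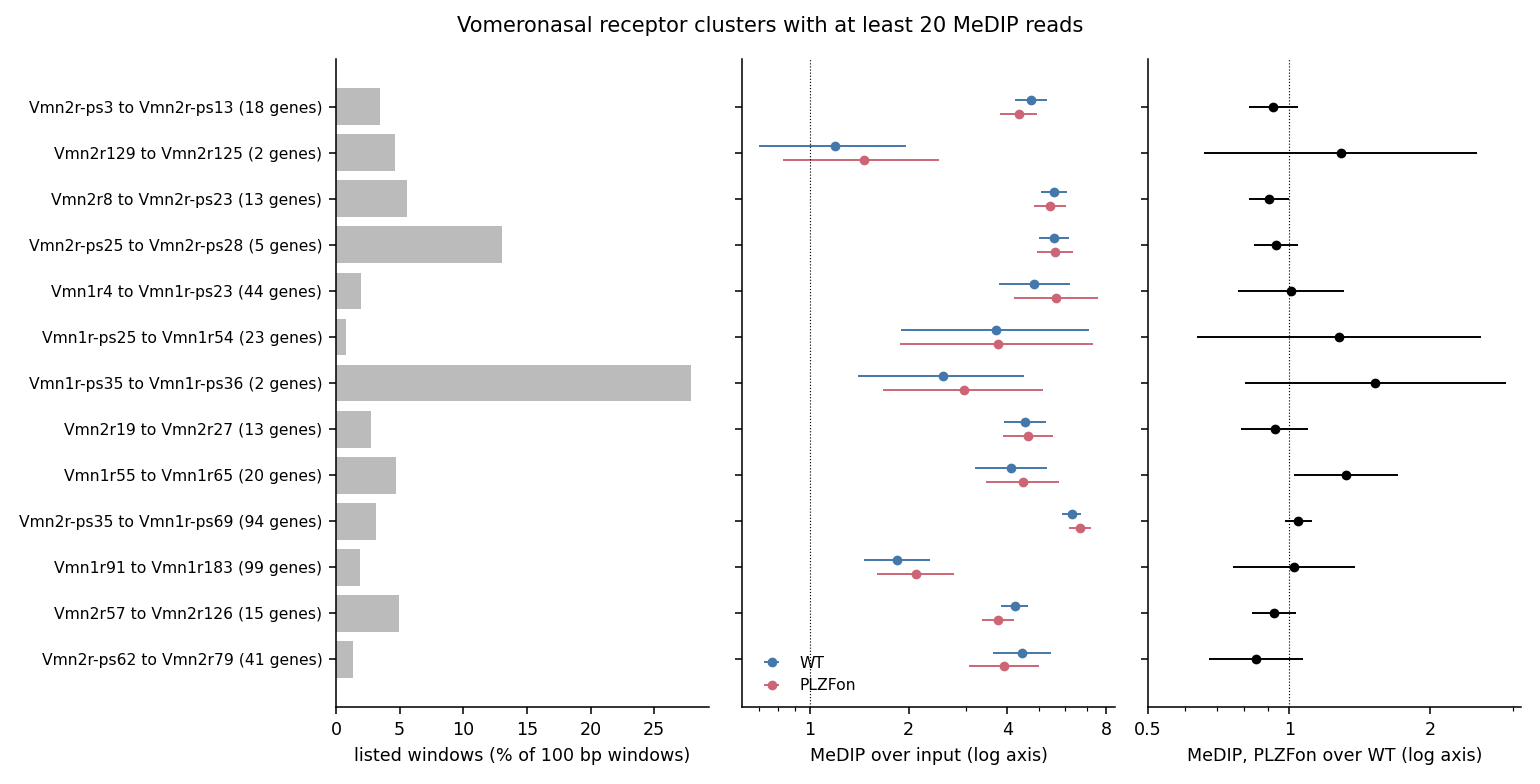
The 13 clusters with at least 20 MeDIP reads, named by their first and last gene: share of windows listed (left, %), MeDIP over input in WT and PLZFon (middle, log axis) and MeDIP of PLZFon over WT (right, log axis); bars are exact 95% binomial intervals and dotted lines mark 1. The clusters of Vmn2r129 and of Vmn1r91 have the lowest enrichment in both genotypes.

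Where receptor windows were listed, they were enriched, Vmn2r more than Vmn1r. In WT, MeDIP exceeded input 5.01-fold (4.83 to 5.19) over all receptor windows, 3.39-fold (3.04 to 3.79) at Vmn1r and 5.26-fold (5.06 to 5.47) at Vmn2r loci. In PLZFon the values were 4.98 (4.78 to 5.19), 3.85 (3.40 to 4.36) and 5.16 (4.93 to 5.39). Olfr loci stood at 4.56 (4.36 to 4.78) and 4.32 (4.10 to 4.56), and all other listed windows at 4.44 and 4.22. Because a window had to reach 10 MeDIP reads to be listed, these are levels of the windows that passed and not of whole loci. Intact genes and pseudogenes had like values in WT: 3.40 and 3.37 at Vmn1r, 5.23 and 5.26 at Vmn2r. Input per listed window was 14.3 reads in WT and 11.6 in PLZFon, above the 11.7 and 9.88 of other windows and the 10.7 and 9.01 of Olfr windows.

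Over all receptor windows enrichment was higher the more CpGs a window held, and the densest class lay above that of other listed windows. In WT it was 3.35 (3.11 to 3.61) at factor 1, 5.02 (4.63 to 5.44) at factor 3, 7.81 (6.79 to 8.99) at factor 5 and 10.1 (8.70 to 11.8) at 7 or more. The other listed windows stood at 3.68, 4.74, 6.19 and 7.34. In PLZFon the receptor windows with a factor of 7 or more had 9.93 (8.34 to 11.8), against 6.71 in the others. There were 58 such receptor windows, 3.90% of those listed, against 1.63% of the others; 56 were at Vmn2r loci, 9 of them at Vmn2r35. Olfr loci held 8 and had 11.7 (7.25 to 19.3) in WT. Up to factor 4, Vmn1r windows alone lay lower in WT. They had 3.37 (2.60 to 4.37) at factor 3 and 3.79 (2.69 to 5.34) at factor 4, below the 4.74 and 5.48 of other windows. The denser Vmn1r classes were small and had no single direction in WT. They had 6.93 (4.36 to 11.2) at factor 5 on 10 windows and 4.12 (1.44 to 11.8) at factor 6 on 3. At 7 or more they had 7.76 (3.06 to 21.4) on 2 windows. The other windows had 6.19, 6.70 and 7.34. Without Vmn2r35 and Vmn1r14, the locus of each subfamily with the most reads, the top class was 9.05 (7.63 to 10.8) in WT and 8.91 (7.29 to 10.9) in PLZFon, and all receptor windows together had 4.64 and 4.50. The classes from factor 2 to factor 6 then lay closer to the other windows in both genotypes. Factor 4 had 5.66 (5.05 to 6.36) in WT against 5.48. Factor 5 had 6.77 (5.76 to 7.98) in WT against 6.19 and 5.68 (4.71 to 6.86) in PLZFon against 5.67. At factor 6 the WT interval (6.97 to 10.4) still lay above the 6.70 of the other windows. Factor 1 did not move closer and lay slightly further below the other windows in both genotypes.

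**Figure D3:**
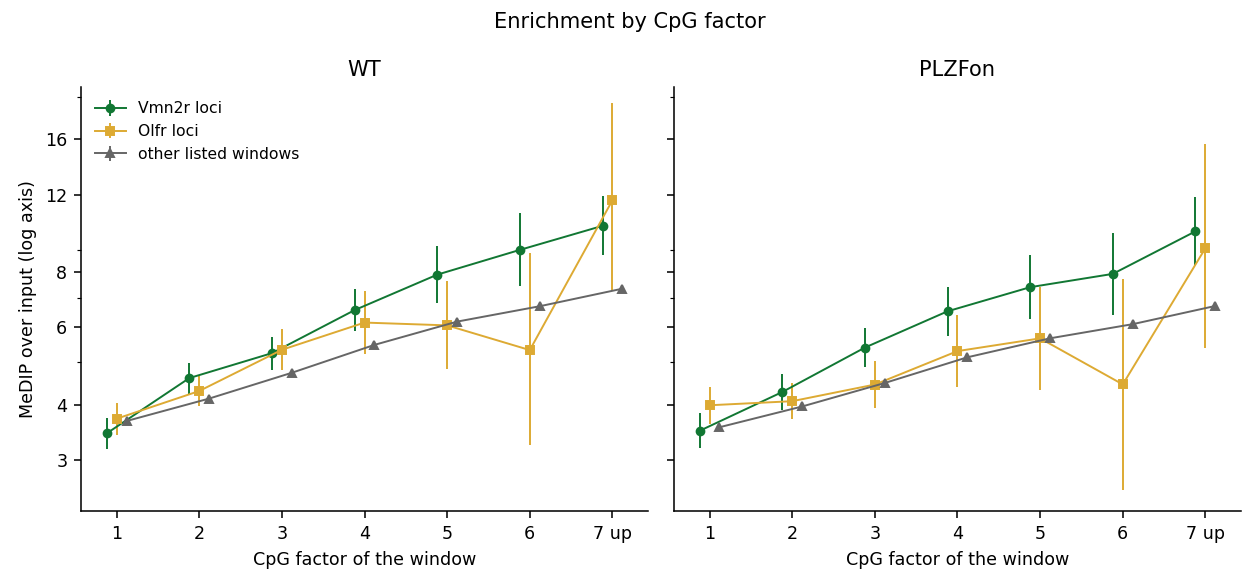
MeDIP over input (log axis) in WT (left) and PLZFon (right) by CpG factor of the window, for Vmn2r loci, Olfr loci and all other listed windows; bars are exact 95% binomial intervals. From factor 3 upward the Vmn2r intervals lie above the other listed windows in both genotypes, and at factor 2 in WT only. Without Vmn2r35 their intervals hold the value of the others at factors 2 to 5 in both genotypes and at factor 6 in PLZFon (6.95, 5.53 to 8.75).

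The MeDIP reads of the family sat in a small number of blocks. Listed windows that adjoined or lay within 400 bp of each other formed 341 runs, of which 70 were a single window. The 30 runs with 10 or more windows held 61.1% of the reads, and the 32 runs with a window of factor 7 or more held 53.6%. All but 2 of these long runs were at Vmn2r loci. Summed over loci, the 5 with the most reads (Vmn2r35, Vmn2r-ps23, Vmn2r-ps11, Vmn2r-ps26 and Vmn2r38) held 48.9%. Of the 10 loci with the most reads 6 were pseudogenes, against 16 of the 56 loci with at least 20 reads and 160 of all 418. The annotated spans of Vmn2r-ps11 (chr3:64632863-64844743) and Vmn2r-ps23 (chr5:109578022-109731447) are long, and that of Vmn2r-ps11 contains Vmn2r7, with which it shares 9 listed windows. Vmn2r-ps50 (chr7:9747772-9747930) is a fragment of 159 bp, and 11 listed windows lay in and next to it, with 122 WT and 77.5 PLZFon reads and an enrichment of 11.3 (7.93 to 16.4) in WT and 9.60 (6.44 to 14.5) in PLZFon. Vmn2r10 had 11.1 (5.11 to 26.2) in WT and 4.82 (2.17 to 10.7) in PLZFon, on 26.25 and 14.75 reads, and these intervals overlap.

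Vmn2r35 (chr7:7786151-7819867, minus strand, protein-coding) carried 17.3% of the family's MeDIP reads. It had 117 of its 358 windows listed, all inside the gene between 7794101 and 7812000, a stretch of 17.9 kb. MeDIP exceeded input 8.14-fold (7.34 to 9.03) in WT and 9.05-fold (8.06 to 10.2) in PLZFon. The listed windows formed 4 blocks, from 7794101 to 7799200, 7800601 to 7803800, 7805301 to 7808400 and 7809901 to 7812000. Each block held 1 window with a CpG factor of at least 10. The first, starting at 7794501, had 64 WT and 40 PLZFon MeDIP reads against 13 input reads in each genotype. The second, at 7801401, had 72 and 71 against 19 and 14. The third, at 7806001, had 89 and 70 against 27 and 12, and the fourth, at 7810601, had 87 and 73 against 15 and 23. The dense windows lay 6.9, 4.6 and 4.6 kb apart. The MeDIP profile correlated best with itself when shifted by 4.5 kb in WT (r = 0.46) and 4.6 kb in PLZFon (r = 0.46), as a description over windows that share reads. The best shift at Vmn2r35 was thus nearly the same in both genotypes, while input stayed between 9 and 30 reads per window in WT and 5 and 28 in PLZFon. At Vmn2r-ps26 the best shift was 3.7 kb in both genotypes and at Vmn2r38 5 kb, but at Vmn2r-ps11 it was 4 kb in WT and 2.5 kb in PLZFon, with weak correlations (r = 0.16 and 0.19). The sequence of these blocks was not used here.

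**Figure D4:**
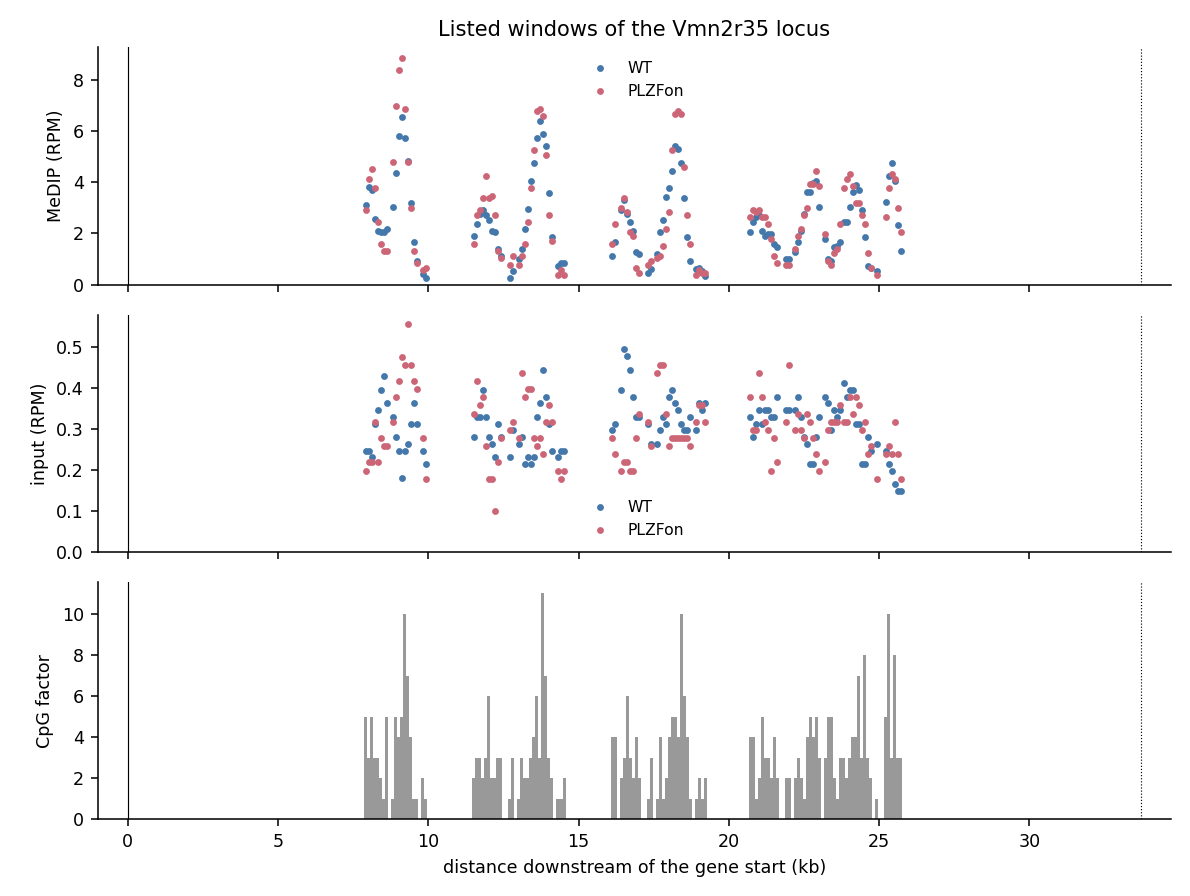
Listed windows of Vmn2r35 by distance downstream of the gene start (kb): MeDIP and input reads scaled to library size (RPM; top and middle) and CpG factor (bottom); blue points are WT, red points PLZFon, the solid line is the gene start and the dotted line the gene end. MeDIP peaks recur at or next to the CpG-dense windows in both genotypes. Further peaks lie at windows of lower factor, for example 4.03 RPM in WT and 4.42 in PLZFon at 7796901 (factor 5). The stretch next to the start has no listed window.

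Between the genotypes, receptor MeDIP differed little, and whether an interval held 1 depended on the scaling and on the windows taken. The family's ratio of PLZFon to WT was 0.976 (0.939 to 1.01) on 4547.5 and 6637.75 reads, and 0.964 in the other listed windows. It was 1.10 (0.974 to 1.24) at Vmn1r, 0.963 (0.925 to 1.0) at Vmn2r and 0.961 (0.914 to 1.01) at Olfr loci. The Vmn1r interval lay above the 0.964 of other windows, and the Vmn2r and Olfr intervals held it. When each CpG factor class was scaled by itself, the family stood at 1.02, Vmn2r at 1.01 and Vmn1r at 1.14 (1.01 to 1.29), and the Vmn1r interval excluded 1 under TMM and listed-window scaling too. With a flank of 5000 bp Vmn1r lay below 1, at 0.986 (0.935 to 1.04), and the family at 0.966 (0.937 to 0.995). Without Vmn1r14 and Vmn2r35 the family had 0.952 (0.913 to 0.993) and Vmn2r 0.935 (0.894 to 0.977). These intervals and those with the wider flank held 0.964. Intact Vmn2r genes stood at 1.0 (0.95 to 1.06) and Vmn2r pseudogenes at 0.914 (0.860 to 0.971), an interval that holds the 0.964 of other windows; the difference between them was not tested. Vmn1r intact genes had 1.08 (0.943 to 1.25) and pseudogenes 1.16 (0.893 to 1.51). The input ratio of the family was 0.981 (0.942 to 1.02).

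At single loci, a difference was called where at least 20 reads lay at the locus, the ratio was at least 2 in either direction and the interval excluded 1. The 56 loci with 20 reads (11 Vmn1r, 45 Vmn2r) gave 0 calls in either direction, where 0.182% of all 14286 gene loci of that depth were called higher in PLZFon and 0.448% lower. Their median log2 ratio was -0.09, against -0.06 over all gene loci. The interval excluded 1 at 1 locus in the higher direction (1.21% of all gene loci) and at 0 in the lower (3.67%). Just outside the depth limit were Vmn1r-ps38 and Vmn1r4 with 19.75 reads each, and just inside were Vmn1r126 with 21.25 and Vmn2r-ps34 with 21.5. That limit is on the sum of both libraries, so a thin locus can pass through the genotype where it is high.

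Vmn1r63 (chr7:5802345-5826229) was the locus with an interval above 1. It held 63.25 PLZFon and 54.5 WT reads over 24 listed windows, a ratio of 1.65 (1.13 to 2.42), and its input ratio was 1.43 (0.996 to 2.05). The input thus stood in the same direction, and its part in the MeDIP ratio was not tested. Vmn1r-ps36 had 1.66 (0.713 to 3.93) and its neighbour Vmn1r-ps35, with which it shares 4 listed windows, 1.63 (0.775 to 3.48). The lowest Vmn1r ratio was 0.383 (0.102 to 1.12) at Vmn1r126, on 4.5 PLZFon and 16.75 WT reads. Vmn1r83 (0.918), Vmn1r30 (0.934) and Vmn1r-ps51 (0.989) followed, and Vmn1r14, the Vmn1r locus with the most reads (48.75 and 69.25), was at 1.0 (0.680 to 1.47).

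Of the Vmn2r loci with 20 reads, 31 lay below 1 and 14 above, and all 45 intervals held 1. Their median ratio was 0.922. Over all 14286 gene loci of that depth it was 0.961, so more lay below 1 than above there too. The lowest Vmn2r ratios were at Vmn2r56 with 0.676 (0.416 to 1.07), Vmn2r57 with 0.680 (0.387 to 1.16), Vmn2r24 with 0.688 (0.241 to 1.78) and Vmn2r7 with 0.712 (0.286 to 1.65). Vmn2r7 and Vmn2r5 belong to the receptors that many basal neurons express beside their other Vmn2r receptor, and Vmn2r5 had the highest ratio, 1.56 (0.734 to 3.36). Vmn2r16 had 1.52 (0.616 to 3.77), Vmn2r26, known for its response to peptide ligands of MHC class I, 1.42 (0.585 to 3.47), and Vmn2r129 1.34 (0.551 to 3.23). Vmn2r35 stood at 1.09 (0.994 to 1.19) on 846.5 and 1107 reads, and Vmn2r-ps23 at 0.910 (0.805 to 1.03) on 433 and 677.5. Against the 0.964 of other listed windows, the Vmn2r35 interval lay above and the Vmn2r-ps23 interval held it. The Vmn2r35 interval excluded 1 under TMM, at 1.13 (1.03 to 1.24), and when CpG factor classes were scaled separately, at 1.14 (1.04 to 1.25).

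**Figure D5:**
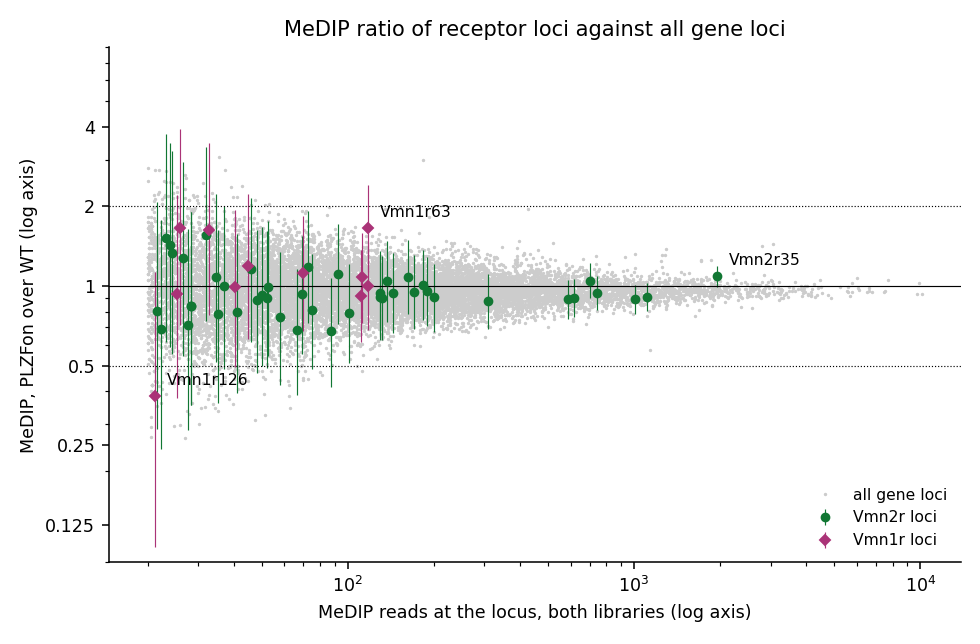
MeDIP ratio of PLZFon to WT (log axis) against MeDIP reads at the locus (log axis) for all gene loci with at least 20 reads (grey), Vmn2r loci (green) and Vmn1r loci (purple) with exact 95% binomial intervals; dotted lines mark 2-fold differences. Vmn2r35, the locus with the most reads, lies at 1.09, and Vmn1r63 stands at 1.65.

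Of the 13 clusters with 20 reads, 1 had an interval below 1 and 1 above. The cluster on chromosome 5 at 108.80 to 109.73 Mb (13 Vmn2r loci) had 0.907 (0.823 to 0.998), which became 0.940 (0.853 to 1.03) with edgeR's TMM scaling. The cluster on chromosome 7 at 5.15 to 6.01 Mb (19 Vmn1r loci and 1 Vmn2r locus) had 1.32 (1.02 to 1.71) and an input ratio of 1.22 (0.945 to 1.57). Without Vmn1r63 it stood at 1.08 (0.749 to 1.55), an alternative chosen after seeing the data. The largest cluster, at 7.15 to 13.24 Mb, had 1.05 (0.979 to 1.12). The 0.964 of other listed windows lay inside the chromosome 5 interval. It lay below the intervals of both chromosome 7 clusters with all their loci.

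Under the same rule applied to single windows, 7 of 733 receptor windows were higher in PLZFon (0.955%, against 1.13% of all listed windows of that depth) and 1 was lower (0.136%, against 2.17%). In the inputs, which by their titles had no pull-down, 15 of 1080 receptor windows were higher (1.39%, against 1.92%) and 20 lower (1.85%, against 1.43%). The 7 higher MeDIP windows made 4 separate observations, and 5 of them were at Vmn1r63. There the window at chr7:5810601-5810700 had a ratio of 2.98 (1.39 to 6.77), from 23 PLZFon and 11 WT MeDIP reads, where the inputs had 8 and 10. The others were at Vmn2r59 (15 against 6 reads, 3.56-fold, 1.31 to 11.2; inputs 13 and 6) and Vmn2r62 (14 against 7). The lower window was at Vmn2r-ps23 (4 against 19, a ratio of 0.300, 0.0742 to 0.902; inputs 15 and 15). In the authors' deposited table, 0 receptor windows had an adjusted p below 0.05, where 0.0144% of all windows had one, and the smallest was 0.995, at the Vmn1r63 window. By its unadjusted p, the authors' deposited table had 37 receptor windows higher in PLZFon (2.49%, against 1.63% of all windows) and 8 lower (0.538%, against 1.68%) at p below 0.05.

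The genes around the receptors in the pathway were read from lists chosen by function. Of 9 signalling genes in range, including the channel Trpc2, all 9 had 20 reads and 0 were called, with a median log2 ratio of 0.09 against -0.06 over all gene loci. The chloride channel gene Ano2 had 1.06 (0.956 to 1.18), the potassium channel gene Kcnn3 0.910 (0.809 to 1.02) and Trpc2 1.09 (0.789 to 1.5), on 71.5 PLZFon and 93.5 WT reads. All 6 genes for neuron identity and wiring had 20 reads, with 0 called and a median of -0.17; the axon guidance receptor gene Nrp2 was at 0.906 (0.797 to 1.03) and the homeobox gene Meis2 at 0.928 (0.808 to 1.07). Of the receptor transport genes, Reep1 was at 0.933 (0.788 to 1.10) and Calr4 at 0.875 (0.654 to 1.16). Of 26 pheromone and odorant carrier genes, 6 had 20 reads and 0 were called; Obp2b was at 0.962 (0.838 to 1.10) and the major urinary protein gene Mup5 at 1.15 (0.779 to 1.70). The sweet and umami taste receptor genes Tas1r2 and Tas1r1 had 0.731 (0.505 to 1.05) and 0.869 (0.544 to 1.37). Of 39 bitter taste receptor genes (Tas2r), short single-exon genes like Vmn1r, 8 had a listed window and 0 reached 20 reads. Of 754 Olfr loci, 282 had a listed window and 109 reached 20 reads, with 0 called higher and 1 lower.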

How the data were processed

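The labels and file headers describe 1 table of 100 bp windows over 4 libraries, 1 per group. BWA and edgeR are named, with build mm10, in the submitters' processing notes; versions and the filter for unique reads, which the file headers name, are not given in the sources used here. Per the file headers, the deposited columns hold raw read counts, RPKM, a relative methylation score and the CpG factor per window, and the authors' edgeR log2 fold change, p-value and adjusted p-value. The deposited table stops at 1048576 lines including its header, at position 139972600 of chromosome 7.

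Library totals were recovered from the deposited counts and RPKM to within their rounding. A read is counted in several windows, so window sums were divided by 4 before any interval (neighbouring input windows gave about 3.32). Ratios are depth-scaled counts with exact (Clopper-Pearson) 95% intervals. The raw counts, not the authors' RPKM, score or log2 fold change, gave every ratio. Genes and promoters came from RefSeq (GRCm38.p6). A locus or window was called with at least 20 reads, a 2-fold ratio and an interval excluding 1; the same rule over all gene loci or windows is the background. Runs joined windows within 400 bp. Genes were named by rule: extremes of ratio, enrichment, reads, CpG factor and input, all clusters, and 2 genes per list. Trpc2 was added for its role. Members and lists were chosen with earlier results of these data known. Alternatives were other scalings (edgeR 4.0.16 TMM in R 4.3.3), flanks, divisors, depths, fold sizes and CpG factor limits. Python 3.11.15, pandas 2.3.3 and scipy 1.17.1 were used.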

Additional observations from a re-analysis of the deposited data

How the results depend on the processing

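No paired analysis was possible because each group holds 1 library, and for the same reason no library could be left out and no spread between replicates is known; intervals cover counting error only. All 169 alternative values of single-locus ratios and all 103 of cluster ratios stayed inside the interval of the value reported. Some alternatives' own intervals excluded 1 where that of the reported value did not. These counts say little about robustness. Dividing window sums by 3 or 6 cannot change a ratio, so those values were fixed in advance. Leaving out windows with at least 60 input reads left most of these ratios as they were. A locus below the depth limit in a setting gave no value there. Intervals at thin loci were wide, for example 0.102 to 1.12 at Vmn1r126. Scaling within CpG factor classes moved the family ratio to 1.02 and the Vmn2r ratio to 1.01; the family stood at 1.01 under TMM and listed-window scaling. The Vmn1r ratio became 1.14 under these 3 scalings, with intervals above 1, and 0.986 with a flank of 5000 bp. The Vmn2r interval lay below 1 with that flank (0.957, 0.923 to 0.992), with sums divided by 3 (0.963, 0.930 to 0.997) and without Vmn2r35 (0.935). The Vmn2r35 interval lay above 1 under the 3 scalings and with sums divided by 3 (1.09, 1.01 to 1.18). Scaling by TMM raised the windows higher in PLZFon to 13. Windows of at least 10 reads gave 25 higher and 8 lower, and windows of at least 40 reads gave 0 and 0. Dividing window sums by 3 called 2 loci lower (Vmn1r124 and Vmn1r126), a depth of 10 reads called 1 higher (Vmn2r18, on 10 and 3.25 reads) and a 1.5-fold size called 1 higher (Vmn1r63). Clusters with an interval above and below 1 became 2 and 0 under TMM, scaling by listed windows or scaling by class, 0 and 3 with a flank of 5000 bp, and 0 and 0 with sums divided by 6.

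Enrichment followed the windows taken. With a CpG factor under 3 it was 3.82 in WT and 3.80 in PLZFon for the family, 3.98 and 3.86 for Vmn2r and 3.02 in WT for Vmn1r. Windows of at least 20 reads gave 7.13 and 6.98 for the family, 6.04 and 5.99 for Vmn1r and 7.22 and 7.07 for Vmn2r, and were 1.67%, 0.765% and 1.91% of the windows spanned. With a flank of 5000 bp the family had 4.47 and 4.38 and Vmn2r 5.01 and 4.87, and 3.31% of Vmn1r windows were listed; with no flank 3.66% of the family's windows were. Within 500 bp of Vmn2r starts 1.76% were listed. Without Vmn1r14 and Vmn2r35, an alternative chosen after seeing the data, enrichment was 4.64 and 4.50 for the family and 4.87 and 4.63 for Vmn2r. The causes of these shifts were not tested, beyond what each setting changes by construction.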
